A study of Mus musculus with 3 samples.

Results

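The transcripts of 10 genes for activin, BMP and TGF-β signalling were counted in lung endothelial cells (ECs) of mice given melanoma cells. The genes were Inhbb, Inhba, Bmp4, Bmp6, Bmpr2, Acvrl1, Eng, Tgfb1, Tgfbr2 and Tgfbr3, taken by symbol from the 32285 genes of the deposited matrices. Each symbol was found once. The data are 3 droplet libraries of RNA 3′ ends, 1 per group, from wild-type C57BL/6 mice that were adult males per the study's methods. The lungs were digested with collagenase and sorted for Pecam1 positive, Ptprc negative cells. The control library came from mice given PBS through the tail vein and taken at 6 h. The melanoma 6 h and melanoma 30 h libraries came from mice given 200000 B16-F10 cells in 100 µl of PBS by the same route. B16-F10 is a pigmented melanoma line of the same mouse strain whose cells lodge in lung capillaries. No PBS library of 30 h was analysed here, so time and tumor cells cannot be told apart at 30 h. The labels give 2 mice per treatment, the study's methods another number, and the cells of the mice were pooled.

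Ligands of this family are dimers that bind a complex of type I and type II receptor kinases, which then phosphorylate SMAD proteins. Activins and TGF-β signal through SMAD2 and SMAD3, and BMPs through SMAD1, SMAD5 and SMAD9. In vessels the type I receptor ALK1 (gene Acvrl1), the type II receptor BMPR2 and the co-receptor endoglin (gene Eng) form the main BMP receptor. Loss of ALK1 or endoglin causes hereditary vessel malformations, and loss of BMPR2 pulmonary arterial hypertension. Inhbb and Inhba encode the βB and βA chains, which form activin B and activin A as homodimers.

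ECs were barcodes with 1000 to 5000 detected genes, under 20% mitochondrial UMIs and at least 2 UMIs of the endothelial junction genes Pecam1 and Cdh5 together. A UMI marks 1 captured RNA molecule. Across the libraries 5 endothelial markers summed to between 6226 and 7437 CPM, which is UMIs per 1000000 UMIs of the same cells. The control library gave 11231 such cells, the 6 h library 10583 and the 30 h library 9278, or 96.8 to 97.6% of the barcodes that passed the other limits. The libraries held between 124085451 and 140601123 UMIs, and the median EC held between 7782 and 8676. Pairs of libraries shared between 22 and 38 EC barcodes. The melanoma 6 h library also held sorted melanoma cells: 42 barcodes had at least 4 of 8 pigment cell markers, 7 of them inside the EC gate, against 0 in the other libraries. The 8 pigment cell markers summed to 2.22 CPM in control ECs, 14.9 CPM at 6 h and 1.51 CPM at 30 h, 6 of them were higher at 6 h, and 1 was at 0 in the control. Pericyte markers summed to between 63.0 and 81.9 CPM and epithelial markers to 819, 598 and 366 CPM. UMIs were summed over the cells of a library, and with 1 library per group no test between groups was possible. All intervals are at 95% and cover counting error only, not the spread between mice or libraries. Those of levels and ratios also leave out the spread between cells. A gene was called higher or lower at a 1.5-fold difference, among the 10175 genes whose 3 library values averaged 5 CPM or more.

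Inhbb is on chromosome 1 (119415465 to 119422248, minus strand, GRCm38), Bmp4 on chromosome 14 (46383520 to 46390669, minus strand) and Bmp6 on chromosome 13 (38345107 to 38500302, plus strand). These were the members past 1.5-fold, and the 250 bases before their RefSeq start sites (GRCm38.p6) are shown because the members changed at different times. RefSeq promoters were found for 8 of the 10 members. Capitals mark CACGTG, the E-box.
Inhbb, minus strand, chr1:119422249-119422498: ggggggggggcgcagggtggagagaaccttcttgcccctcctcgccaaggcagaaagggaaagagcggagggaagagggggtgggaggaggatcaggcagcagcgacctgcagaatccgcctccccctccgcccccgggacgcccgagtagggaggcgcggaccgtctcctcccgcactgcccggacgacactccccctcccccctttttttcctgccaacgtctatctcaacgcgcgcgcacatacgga
Bmp4, minus strand, chr14:46390670-46390919: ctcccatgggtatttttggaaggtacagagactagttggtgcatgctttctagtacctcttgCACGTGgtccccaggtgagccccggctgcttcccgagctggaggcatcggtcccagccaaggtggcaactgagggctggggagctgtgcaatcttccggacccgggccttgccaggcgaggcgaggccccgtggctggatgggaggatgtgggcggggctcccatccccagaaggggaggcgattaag
Bmp6, plus strand, chr13:38345466-38345715: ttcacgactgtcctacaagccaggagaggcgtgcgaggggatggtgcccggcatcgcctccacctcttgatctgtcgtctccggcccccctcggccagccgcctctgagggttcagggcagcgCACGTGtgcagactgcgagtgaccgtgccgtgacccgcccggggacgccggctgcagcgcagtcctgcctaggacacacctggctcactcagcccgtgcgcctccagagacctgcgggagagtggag
Bmp4 and Bmp6, the members that were lower at 30 h, each held 1 E-box, which began 188 and 127 bases before the start. Of 32851 promoters, 6.02% held it in the same 250 bases. Both strands were searched for 8 motifs, of which the Inhbb window held none and the Bmp4 and Bmp6 windows only the E-box. The Bmpr2 window held 1 GGCGCC, 105 bases before the start. Besides the E-box these were the SMAD motifs GGCGCC (9.59% of promoters) and GTCTAGAC (0.167%), TGANTCA of AP-1 (6.75%), TGACGTCA of the cyclic AMP response (1.55%), TTCNNNGAA of STAT factors (7.02%), the kappa B site (0.980%) and the heat shock element (0.466%). The bases of the Inhbb window were 68.0% G or C. A match describes the letters only.

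Among the ligands, Inhbb stood apart at 6 h. Control ECs had 4.01 CPM (364 UMIs), ECs of the 6 h library 28.3 CPM (2468 UMIs) and those of the 30 h library 7.29 CPM (594 UMIs). The 6 h level was 7.05-fold the control level (log2 ratio 2.82, interval 2.66 to 2.98), and of the 10175 genes compared only 1 had a larger ratio. The control level was under the minimum of 5 CPM, so the melanoma levels brought Inhbb among these genes. At 30 h it was 1.82-fold the control level (0.86, 0.67 to 1.06) and lower than at 6 h (-1.96, -2.09 to -1.825). With each cell thinned to 2000 UMIs, the 30 h log2 ratio was 0.48, which is under 1.5-fold. Heat shock genes were also higher at 6 h, all 8 of them, with a sum of 1235 CPM in the control and 2664 CPM at 6 h, and so were all 10 immediate early genes (8794 and 12020 CPM). In cells that had at most 15 UMIs of both lists per 2000, the log2 ratio of Inhbb at 6 h was 2.14. At 6 h Inhbb was also higher in the 141 ECs with pigment cell RNA (54.3 against 27.9 CPM), and in those with pericyte (38.1 against 26.0 CPM), fibroblast (37.5 against 26.8 CPM) and platelet RNA (34.5 against 26.8 CPM). It was lower at 6 h in those with epithelial RNA (25.6 against 29.5 CPM), and for leukocyte RNA the interval reached 0 (22.4 against 26.35 CPM). For platelet RNA the order was the other way round in the control (2.31 against 4.16 CPM) and at 30 h (5.69 against 7.72 CPM), as it was for pericyte RNA at 30 h (5.11 against 7.10 CPM) and fibroblast RNA in the control (1.41 against 4.06 CPM). With the ECs carrying pigment cell RNA left out, the 6 h log2 ratio was 2.81.

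Inhba, which encodes the other common activin chain, was nearly absent from ECs, with 9 control UMIs, 17 UMIs after 6 h and 14 UMIs after 30 h, or at most 0.195 CPM. It did not reach the minimum level for a call. The intervals of its ratios to control ran from -0.27 to 2.32 at 6 h and from -0.52 to 2.18 at 30 h. The 123 control barcodes with no Pecam1 or Cdh5 UMI held 10.6 CPM of Inhba (6 UMIs).

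Bmp4 and Bmp6 showed another course: they were near the control level at 6 h and lower at 30 h. The Bmp4 level was 57.0 CPM (5176 UMIs) in control ECs, close to that at 6 h (61 CPM, 5328 UMIs) and down to 23.8 CPM (1940 UMIs) at 30 h. The control level was 2.39-fold the 30 h level (log2 ratio -1.26, -1.335 to -1.18), and 53 of 10175 genes were lower in that comparison. Bmp4 has wide roles in lung development, and Bmp6 is the ligand by which ECs, best known in liver, set hepcidin and thereby iron levels. The Bmp6 level was 723.5 CPM in control ECs, 747 CPM at 6 h and 466 CPM at 30 h, so the control level was 1.55-fold the 30 h level (-0.63, -0.65 to -0.62). When scaled by the median of gene ratios the Bmp6 log2 ratio at 30 h was -0.56, and without mitochondrial, ribosomal and rRNA-like genes -0.58, both short of 1.5-fold. Bmp6 shares its locus with Txndc5 and Eng with Fpgs on the opposite strand, and whether the counting used strand is not stated.

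Tgfb1, which encodes the best studied TGF-β ligand, varied less, from 112 CPM in control ECs to 131 CPM (6 h) and 107 CPM (30 h). Its log2 ratio to control was 0.23 (0.19 to 0.27) at 6 h. At 30 h it was -0.07 in all ECs and between -0.12 and 0.13 under the other settings, so no direction can be given. Leukocytes and platelets also make Tgfb1. Leukocyte markers summed to 95.1, 118 and 77.6 CPM and platelet markers to 149, 181 and 149 CPM in the 3 libraries, and all 6 platelet markers were higher at 6 h than in the control. Of the 8 leukocyte markers 7 were higher than in the control at 6 h and 7 at 30 h, although their sum was lower at 30 h. The 6 h log2 ratio was 0.22 without barcodes carrying platelet RNA (at least 2 UMIs of these markers) and 0.21 without those carrying leukocyte RNA.

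**Figure D1:**
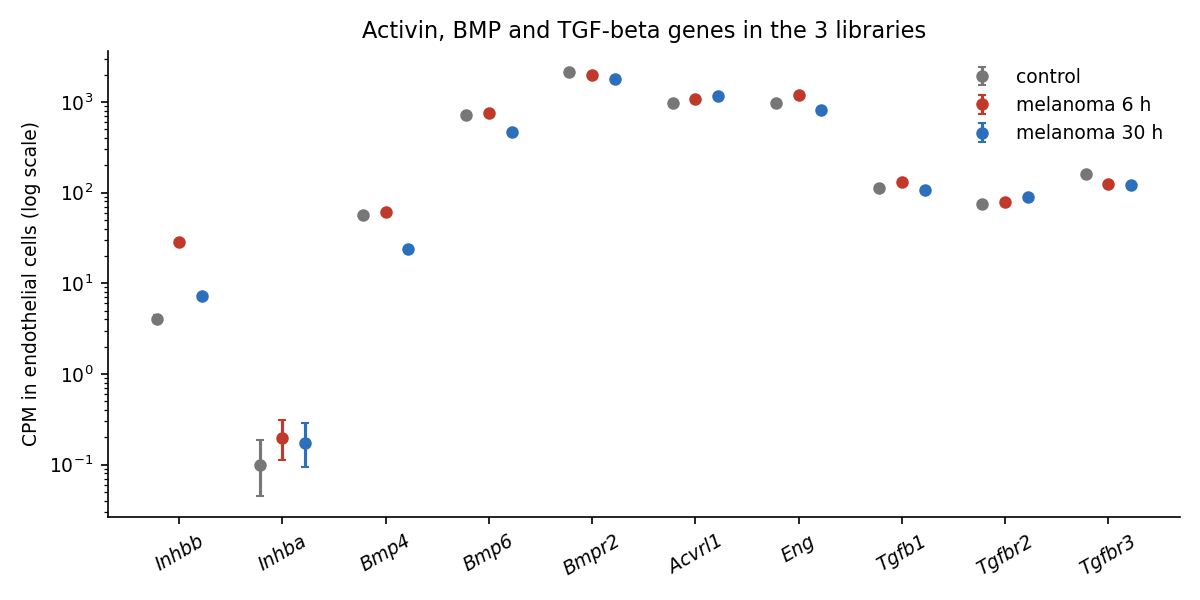
CPM of each of the 10 genes (log axis) summed over endothelial cells, 1 point per library; bars are exact 95% Poisson intervals and are smaller than most points. Inhbb had 4.01 CPM in the control and 28.3 CPM at 6 h, while Bmp4 and Bmp6 were lowest at 30 h.

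The receptors moved by less than 1.5-fold in all 3 comparisons with the main settings. Under the other settings the log2 ratio of Eng at 30 h against 6 h ran from -0.59 to -0.48, and the lower end is past 1.5-fold. Bmpr2, the type II receptor, stood at 2133 CPM in control ECs, 1966 CPM after 6 h and 1796 CPM after 30 h. Its log2 ratio to control was -0.12 (-0.13 to -0.11) at 6 h and -0.25 (-0.26 to -0.24) at 30 h. Acvrl1 went the other way, from 978.5 CPM in control ECs to 1080 CPM after 6 h and 1155 CPM after 30 h (0.14 and 0.24). Eng was higher than the control at 6 h and lower at 30 h, the levels being 975 CPM (control), 1195 CPM (6 h) and 817 CPM (30 h), or log2 ratios of 0.29 and -0.25. So the 3 parts of the main endothelial BMP receptor did not share a direction at 30 h, and each of these directions held under all settings tried.

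Tgfbr2, the type II receptor for TGF-β, went from 75.2 CPM in control ECs to 79.7 CPM (6 h) and 88.7 CPM (30 h), with log2 ratios of 0.08 and 0.24. Tgfbr3 encodes betaglycan, a co-receptor that presents TGF-β2 and lets inhibin oppose activin. It had 162 CPM in the control library and was lower in both melanoma libraries, at 124 CPM (-0.38, -0.42 to -0.35) and 121 CPM (-0.42, -0.45 to -0.38). At 6 h only 450 of 10175 genes had a lower ratio.

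Of the 10 members, 9 passed the minimum level. Inhbb, at 4.01 CPM in the control, passed it only through its melanoma levels, and the same rule was used for all genes. At 6 h, 1 of the 9 (Inhbb) was called higher, against 2.06% of all genes, and 0 lower, against 1.36%. At 30 h, 1 of 9 (Inhbb) was higher than in the control, against 4.85% of all genes, and 2 (Bmp4 and Bmp6) were lower, against 5.01%. Between 30 h and 6 h, 0 of 9 were higher at 30 h, against 5.21% of all genes, and 3 (Inhbb, Bmp4 and Bmp6) were lower, against 5.28%. Both comparisons with the control share the control library. The median log2 ratio of the 9 was 0.10 at 6 h and -0.25 at 30 h, and that of all genes was -0.01 and -0.07.

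Classes of vessel were gated on 8 markers each that held no member and no other gene of the pathway. Cells with at least 4 markers of aerocytes (aCap, the thin capillary cells of gas exchange), artery, vein or lymphatic ECs (LEC), and more of that class than of the other 3, took the name of that class. Cells with at least 5 markers of general capillary ECs (gCap) and at most 2 of any other class were called gCap-like. The gates, whose limits were set after the cells had been seen, took 6308 gCap-like, 1821 aCap-like, 674 vein-like, 339 artery-like and 72 LEC-like cells in the control library, and left 2017 ungated. In the 6 h and 30 h libraries they took 5993 and 4549 gCap-like, 1509 and 1810 aCap-like, 490 and 531 vein-like, 303 and 396 artery-like, and 54 and 55 LEC-like cells. Between 378 and 717 gCap-like and between 152 and 156 artery-like cells per library lay at the limit of their gate.

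In the control library Inhbb was highest in artery-like cells, at 7.89 CPM (24 UMIs, 5.05 to 11.7), and in gCap-like cells, at 5.13 CPM (4.52 to 5.81), whose intervals overlap. It was lower in vein-like (2.14 CPM) and aCap-like cells (0.96 CPM), which overlap each other. LEC-like cells had 0 UMIs in each library, with upper limits of 6.05 to 8.485 CPM. At 6 h all 4 blood vessel classes were above control: gCap-like cells had 24.5 CPM, artery-like 18.7 CPM, vein-like 9.03 CPM and aCap-like 8.71 CPM. The log2 ratio was 2.26 (2.06 to 2.46) in gCap-like, 3.19 (2.47 to 3.985) in aCap-like, 2.08 (1.21 to 3.02) in vein-like and 1.24 (0.53 to 2.00) in artery-like cells. Droplets of at most 100 UMIs, which hold free RNA, had 3.10 CPM of Inhbb in the control and 19.9 CPM at 6 h. The 6 h levels of artery-like, vein-like and aCap-like cells were below the latter. The gCap-like interval at 6 h (23.15 to 25.94 CPM) overlapped that of the droplets (15.16 to 25.69 CPM). How much of the ratios in the 4 classes is free RNA was not tested. At 30 h, artery-like cells had 16.04 CPM (1.02, 0.32 to 1.77), and their level differed from that at 6 h by less than the counting error (-0.22, -0.77 to 0.34). In gCap-like cells the 30 h level was 8.07 CPM (0.65, 0.41 to 0.90). Its interval (7.196 to 9.013 CPM) overlapped that of droplets of at most 100 UMIs at 30 h (4.661 to 9.214 CPM).

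Above every gated class at 6 h were the ECs that no gate took, 18.0% of control ECs and 21.1% at 6 h. The gCap markers were themselves lower at 6 h, with a sum of 6266 CPM in the control and 5062 CPM at 6 h and 2 of 8 higher, and since the gCap gate and the split by gCap marker count use these markers, the change can move cells between them. Its part in the result was not tested. Their control level of 4.49 CPM compared with 72.5 CPM after 6 h and 12.3 CPM after 30 h, a log2 ratio of 4.01 (3.63 to 4.42) at 6 h. With ungated cells left out, a setting chosen after the data were seen, the 6 h log2 ratio was 2.32. Among cells with at most 2 markers of any other class, the 6 h level was 15.4 CPM with 7 to 8 gCap markers, 45.1 CPM with 5 to 6, 154 CPM with 3 to 4 and 153 CPM with 0 to 2. The same steps in the control library gave 4.38, 7.28, 3.25 and 2.70 CPM, and at 30 h 6.635, 14.03, 10.1 and 7.01 CPM, so neither had its highest levels at 0 to 4 markers as the 6 h library did. Cells with few gCap markers were shallow, at a median of 2606 to 3672 UMIs for 0 to 4 markers against 8579 UMIs for 7 to 8 at 6 h, and those with 0 to 2 carried leukocyte markers (1730 CPM), platelet markers (1117 CPM) and epithelial markers (7382 CPM). In the control the cells with 0 to 2 gCap markers carried 1284, 1007 and 8804 CPM of these lists, with 2.70 CPM of Inhbb. The part of this RNA in the result was not tested.

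**Figure D2:**
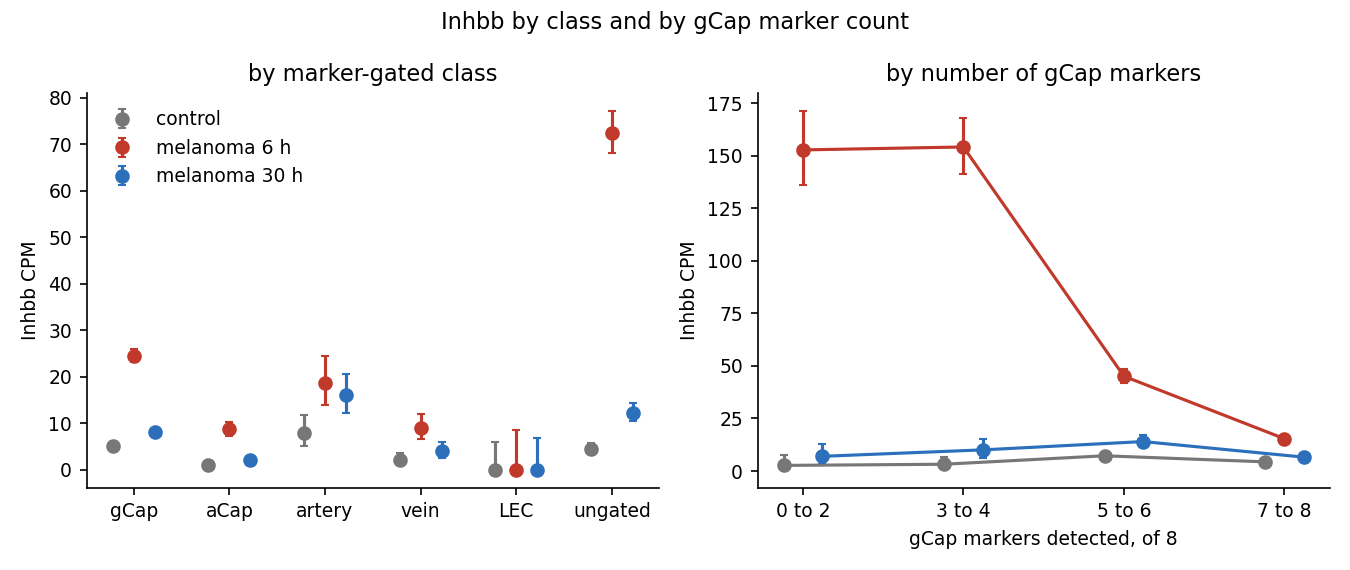
Inhbb CPM with exact 95% Poisson intervals, 1 point per library. Left, the marker-gated classes and the ungated cells; right, cells with at most 2 markers of any other class, by how many of 8 gCap markers were detected. At 6 h the level was 15.4 CPM in cells with 7 to 8 gCap markers and 153 CPM in those with 0 to 2.

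At 6 h few cells carried most of the Inhbb RNA. After thinning to 2000 UMIs, which left out 195, 197 and 111 shallower cells, Inhbb was found in 0.816% of control ECs (90 of 11036, 0.656 to 1.00%), 3.25% at 6 h (338 of 10386, 2.92 to 3.61%) and 1.07% at 30 h (98 of 9167, 0.869 to 1.30%). Without thinning the shares were 2.30%, 7.67% and 3.77%. Among barcodes with no Pecam1 or Cdh5 UMI, thinned the same way, the shares were 0 of 101, 2 of 101 and 0 of 87, and the count of 2 leaves an interval of 0.241 to 6.97%. Droplets of at most 100 UMIs had 6.66 CPM of Inhbb at 30 h, and in each library the EC level was between 1.095 and 1.419 times that, so the share of single-UMI cells that is background is not known. At 6 h, 243 cells (2.30%) had 3 or more Inhbb UMIs and held 71.4% of its UMIs. In the control library 25 cells had as many, with 25.8% of its UMIs, and at 30 h 46 cells, with 35.9%. Cells with a single Inhbb UMI held 53.9% of its UMIs in the control.

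In those 243 cells other genes of the pathway stood apart from cells with no Inhbb UMI of the same library. Bmpr2 had 1208 against 1994 CPM (log2 ratio -0.72, -0.77 to -0.67), Tgfbr3 68.7 against 128.5 CPM (-0.90, -1.12 to -0.69) and Bmp4 20.9 against 63.3 CPM (-1.60, -2.02 to -1.22). Tgfb1 was higher, at 181 against 129 CPM (0.49, 0.35 to 0.62). Of the BMP targets, Tmem100 (834 against 2389 CPM), Smad7 (342.5 against 593 CPM), Smad6 (456 against 694 CPM), Id2 (58.7 against 131 CPM) and Id3 (741 against 1176 CPM) were lower. The interval of the BMP target Atoh8 covered 0. Of the TGF-β and activin targets reported here, Skil (0.18, 0.04 to 0.32) and Ccn2 (0.54, 0.24 to 0.83) were higher. The intervals of Pmepa1, Tgfbi and Fst covered 0, as did that of Ccn2 in gCap-like cells. Smad6 and Smad7 encode inhibitory SMADs and the Id genes inhibitors of basic helix-loop-helix factors. The cells with 3 or more Inhbb UMIs were deeper (median 10380 against 7948 UMIs), and 45.3% were ungated against 19.99% of the cells with none.

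The same split within gCap-like cells, 114 against 5556 at 6 h, gave a log2 ratio of -0.72 (-0.79 to -0.65) for Bmpr2, -0.61 for Bmp6, -0.77 for Smad7 and -1.37 for Tmem100. In ungated cells, 110 against 1953, the ratio was -0.97 for Bmpr2. The control split differed from this in some genes and not in others. Bmpr2 was 2224 CPM in the 25 control cells with 3 or more Inhbb UMIs and 2126 CPM in those with none (0.07, -0.06 to 0.18) and Bmp6 was higher in the former (0.46, 0.28 to 0.64, but 0.17 with an interval of -0.03 to 0.37 in gCap-like cells). Bmp4 (-1.30, -2.75 to -0.18), Tgfbr3 (-1.07, -1.78 to -0.45) and Tmem100 (-0.25, -0.38 to -0.13) were lower in the 25 control cells, as they were at 6 h. Of the other BMP targets, Smad6 (0.40, 0.19 to 0.61) and Id1 (0.52, 0.35 to 0.68) were higher in these control cells. Of the 25 cells 76.0% were gCap-like, against 55.9% of the control cells with no Inhbb UMI. In gCap-like control cells the interval of Smad6 covered 0 (0.16, -0.10 to 0.405). The intervals of Id2, Id3 and Smad7 covered 0 in all control ECs. At 6 h Id1 was lower (-0.44, -0.52 to -0.37). At 30 h the 46 cells had less Bmpr2 (-0.55, -0.66 to -0.44) and less Tmem100 (-0.83, -0.92 to -0.74) than cells with no Inhbb UMI. Tgfbr3, Id3 and Smad7 were also lower there, while the intervals of Bmp4, Tgfb1, Smad6, Id1 and Id2 covered 0. Since these cells were picked by Inhbb, nothing is said of Inhbb itself, and whether the splits differ between libraries was not tested.

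**Figure D3:**
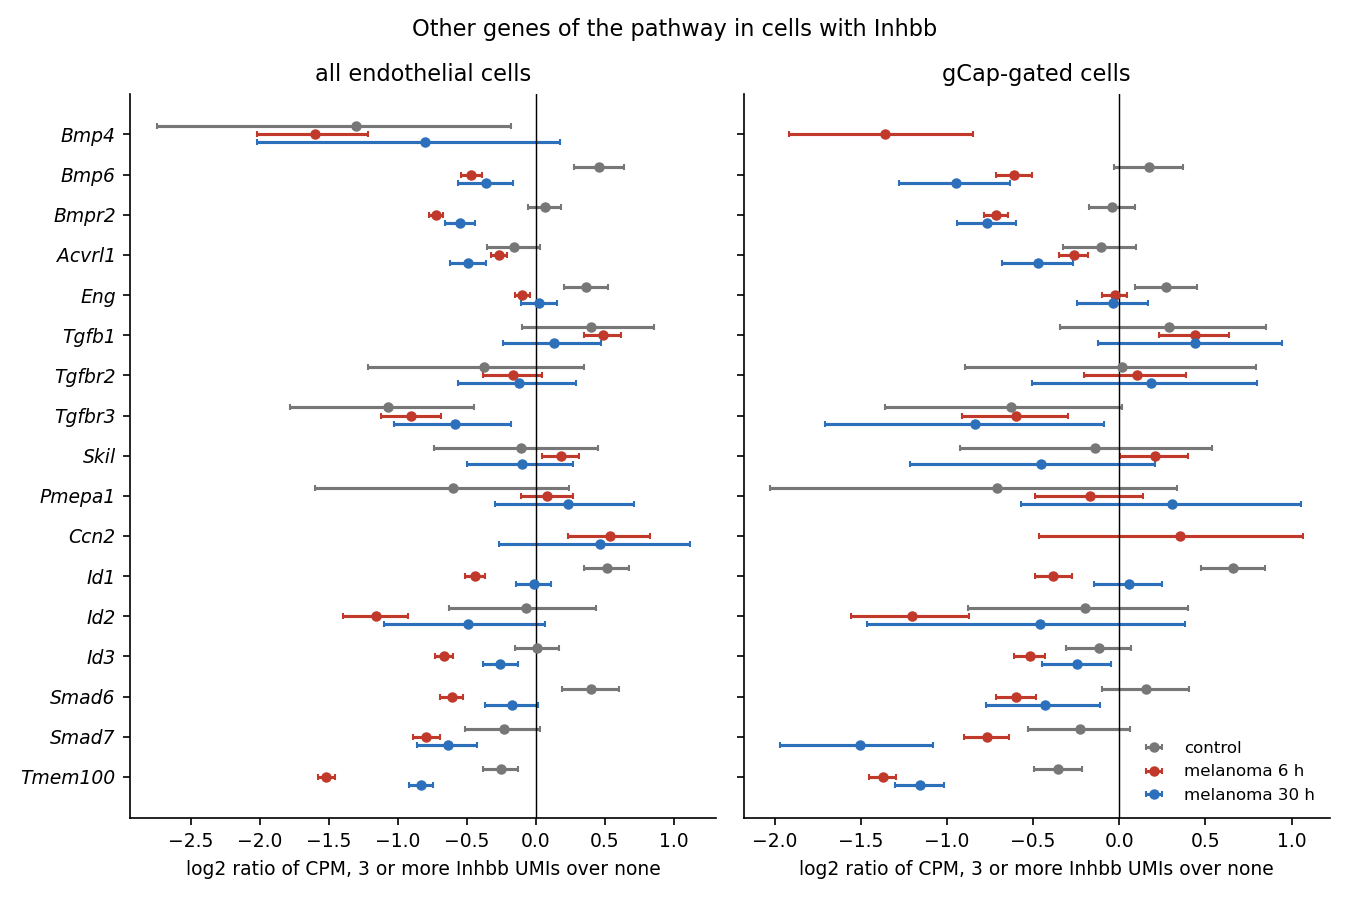
Log2 ratio of CPM in cells with 3 or more Inhbb UMIs over cells with none, in all endothelial cells (left) and in gCap-like cells (right), for other members and target genes; bars are exact 95% intervals, and ratios with intervals 3 or more log2 units wide are not drawn. At 6 h Bmpr2 was at -0.72 in all cells and Tmem100 at -1.52, while in the control Bmpr2 was at 0.07.

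Csf2, a colony-stimulating factor gene, and Pim3, a kinase gene, were examined for detection in the same cells as Inhbb. Per 2000 UMIs, Csf2 and Inhbb were both found in 20 cells at 6 h (0.193%, 0.118 to 0.297%), of 52 with Csf2 and 338 with Inhbb, where the product of the 2 shares is 0.0163%. The control library had 3 cells with Csf2 and the 30 h library 0, too few for a joint count to be compared. Pim3 was found in 29.6% of cells with an Inhbb UMI and in 20.9% of the others at 6 h, in 24.4% and 17.3% in the control, and in 12.2% and 13.65% at 30 h. Csf2 had 213 CPM in cells with 3 or more Inhbb UMIs at 6 h and 1.93 CPM in cells with none.

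Bmp4 differed widely between classes. In the control library vein-like cells had 158 CPM (149 to 168), artery-like 120 CPM (108 to 133), gCap-like 56.0 CPM (53.9 to 58.1), aCap-like 15.9 CPM (14.2 to 17.9) and LEC-like 4.92 CPM from 3 UMIs. No neighbours in that order overlapped but aCap-like and LEC-like cells. At 30 h gCap-like cells had 18.9 CPM (-1.565, -1.69 to -1.45) and aCap-like cells 6.39 CPM (-1.32, -1.63 to -1.02), and these intervals overlap. Droplets of at most 100 UMIs had 61.7 CPM of Bmp4 in the control and 21.1 CPM at 30 h (-1.55), and the gCap-like and aCap-like levels were below these, so how much of their ratios is free RNA was not tested. Artery-like cells had 56.95 CPM (-1.08, -1.33 to -0.83), and vein-like cells, with the smallest drop of the 4, 102 CPM (-0.64, -0.785 to -0.49). Barcodes with fibroblast RNA had more Bmp4, and fibroblast markers summed to 31.2 CPM in control ECs, 23.4 CPM at 6 h and 30.3 CPM at 30 h.

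Bmp6 was shared out differently, with 1042 CPM in artery-like, 933 CPM in gCap-like, 382 CPM in vein-like, 265 CPM in aCap-like and 45.9 CPM in LEC-like cells of the control library, and no neighbours in that order overlapped. It was lower at 30 h in all 4 blood vessel classes, by the widest margin in artery-like cells (546 CPM, -0.93, -1.01 to -0.85) and by narrower margins that overlap in aCap-like (179.8 CPM, -0.56, -0.62 to -0.50) and gCap-like cells (645 CPM, -0.53, -0.555 to -0.51). Vein-like cells had 228 CPM (-0.75). Droplets of at most 100 UMIs had 419 CPM of Bmp6 in the control and 254 CPM at 30 h (-0.72). The vein-like and aCap-like levels were below these, so how much of their ratios is free RNA was not tested. The aCap-like and gCap-like ratios were short of 1.5-fold, unlike that of all ECs. Of control ECs 56.2% were gCap-like and 16.2% aCap-like, and at 30 h 49.0% and 19.5%. The part of these shares in the ratio of all ECs was not tested. LEC-like cells had too few UMIs for a direction (-0.06, -0.91 to 0.78). At 6 h Bmp6 was above control in vein-like (445 CPM) and artery-like cells (1144 CPM).

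The receptors of the main BMP complex were low in LEC-like cells. Bmpr2 had 307 CPM there in the control library against 2369 CPM in gCap-like and 2729 CPM in artery-like cells. Acvrl1 had 146 CPM against 1007 CPM in gCap-like cells, and Eng 310 CPM against 1060 CPM. Droplets of at most 100 UMIs had more than LEC-like cells in the control, at 1207 CPM of Bmpr2, 988 CPM of Acvrl1 and 1009 CPM of Eng. The part of free RNA in the LEC-like levels was not tested. Barcodes with no Pecam1 or Cdh5 UMI, whose cell types were not determined, had 536 CPM of Bmpr2 and 193 CPM of Acvrl1 in the control library. They had 223 CPM of Eng and 99.0 CPM of Bmp6. The LEC-like levels of Bmpr2, Acvrl1 and Bmp6 were no higher than in such barcodes. Tgfbr2 was highest where these were lowest, at 643 CPM in LEC-like cells, 129 CPM in vein-like cells, and 76.3, 66.1 and 65.1 CPM in artery-like, aCap-like and gCap-like cells, and the intervals of the last 3 overlap. Tgfbr3 was also highest in LEC-like cells (394 CPM), then vein-like (221 CPM), aCap-like (191 CPM), gCap-like (147 CPM) and artery-like cells (124 CPM). The barcodes with no Pecam1 or Cdh5 UMI had 221 CPM of Tgfbr2 and 262 CPM of Tgfbr3, above every blood vessel class and below LEC-like cells. Tgfb1 was spread more evenly, at 172 CPM in LEC-like, 142 CPM in aCap-like, 118 CPM in vein-like, 104 CPM in gCap-like and 84.5 CPM in artery-like control cells.

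For several receptors aCap-like cells differed from gCap-like cells. At 30 h aCap-like cells had 1539 CPM of Acvrl1 against 1105 CPM in the control (0.48, 0.45 to 0.50), and gCap-like cells 1113 against 1007 CPM (0.14, 0.13 to 0.16). Eng in aCap-like cells was 847 CPM at 30 h and 834 CPM in the control (0.02, -0.01 to 0.05), while in gCap-like cells it was 826 CPM at 30 h and 1060 CPM in the control (-0.36, -0.38 to -0.34). The Bmpr2 ratio at 30 h was -0.06 in aCap-like and -0.27 in gCap-like cells. Tgfbr3 at 6 h was 182 CPM against 191 CPM in aCap-like cells (-0.07, -0.14 to 0.00) and 108 against 147 CPM in gCap-like cells (-0.45, -0.50 to -0.40). The intervals of the pairs do not overlap, but with 1 library per group the differences between classes were not tested. Droplets of at most 100 UMIs had 1009 CPM of Eng and 988 CPM of Acvrl1 in the control, and 790 and 1156 CPM at 30 h. The part of free RNA in the class ratios was not tested.

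**Figure D4:**
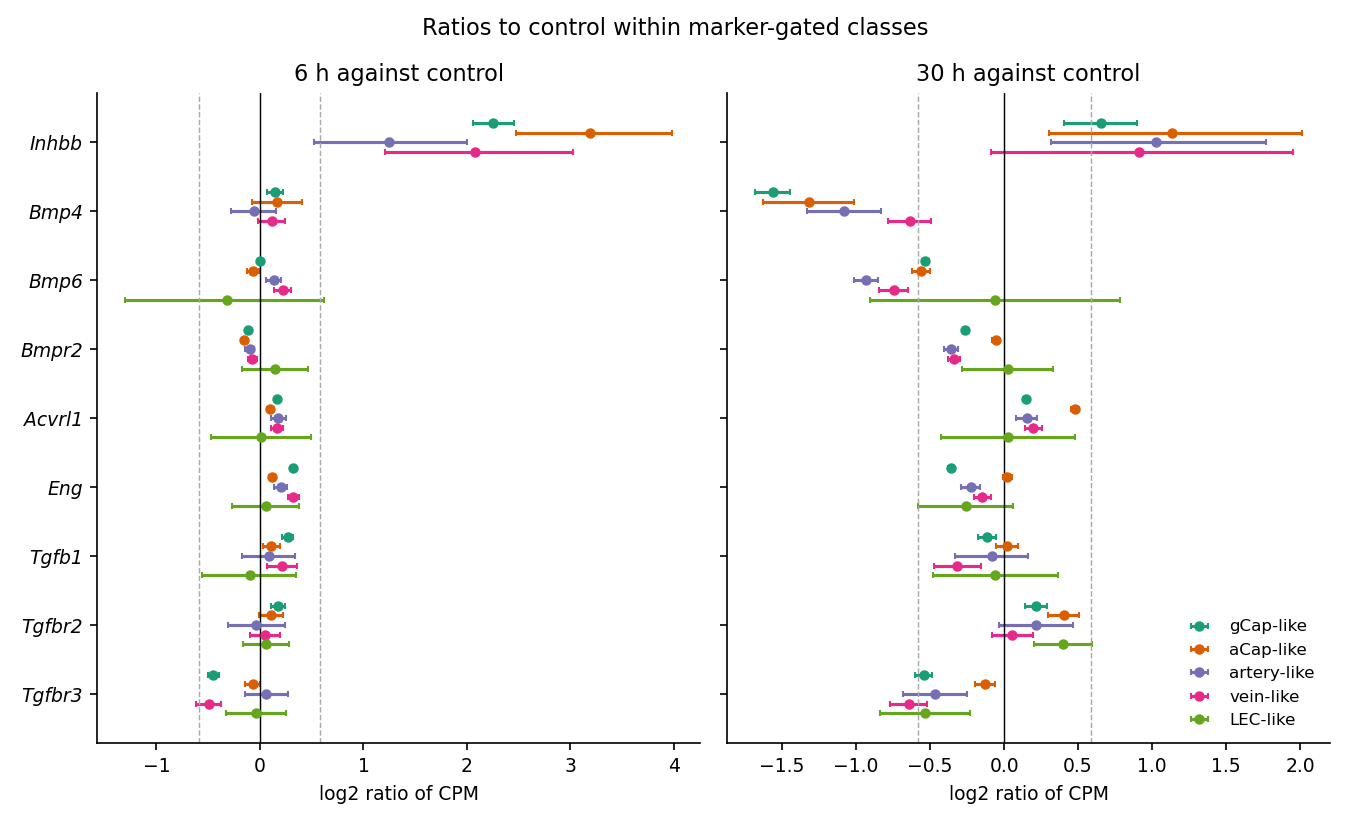
Log2 ratio of CPM to control of 9 genes within the 5 marker-gated classes, at 6 h (left) and 30 h (right); bars are exact 95% intervals, dashed lines mark 1.5-fold, and ratios with intervals 3 or more log2 units wide are not drawn. Inhbb was higher at 6 h in all 4 blood vessel classes, and Bmp4 and Bmp6 were lower in them at 30 h.

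The other genes of the pathway, 76 ligands, receptors, SMADs, inhibitors and targets on 7 lists, were mostly at low levels in ECs, and 37 passed the minimum of 5 CPM. At 6 h, 1 of the 37 was higher, against 2.06% of all genes, and 0 were lower, against 1.36%. Their median log2 ratio was -0.01, as was that of all genes. Of the TGF-β and activin targets, Skil (104.5, 155 and 106 CPM) and Pmepa1 (64.7, 87.2 and 51.4 CPM), which both encode brakes on SMAD signalling, were short of 1.5-fold at 6 h, and Ccn2 was lower than control (31.8, 27.0 and 23.4 CPM). SMAD inhibitor genes serve as targets too, so the lists share members.

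At 30 h, 1 of the 37 was higher, against 4.85% of all genes, and 7 were lower, against 5.01%, with a median of -0.24. Lefty1, a nodal antagonist, was the higher gene, at 4.535 CPM in the control and 7.18 CPM at 30 h (0.66, 0.48 to 0.85). Its control level was under the minimum of 5 CPM, which applies to the average of the 3 libraries. Its higher 30 h level thus helped it to be among the genes compared, and the same rule was used for all genes. The lower genes were Gdf15, a stress-induced cytokine (12.5 to 5.74 CPM, -1.12), Id2 (126.5 to 62.2 CPM, -1.025), Bambi, a decoy receptor (24.7 to 13.3 CPM, -0.89), Smad9 (6.92 to 3.93 CPM, -0.82), Tgif1, a SMAD co-repressor (11.9 to 6.995 CPM, -0.77), Smad1 (93.8 to 57.8 CPM, -0.70) and the activin receptor Acvr2b (23.3 to 14.4 CPM, -0.69). Over all ECs each of these 7 was within 1.5-fold of the control at 6 h. For Gdf15 the classes followed different courses: in aCap-like cells, which hold most of it, it was 53.9 CPM in the control, 55.5 CPM at 6 h and 17.5 CPM at 30 h. In gCap-like cells it was 1.17, 2.49 and 1.58 CPM, in vein-like cells 1.57, 6.68 and 4.02 CPM, and in artery-like cells 2, 20 and 3 UMIs. Its 6 h ratio was 1.09 (0.62 to 1.57) in gCap-like and 2.09 (1.07 to 3.22) in vein-like cells, and its 30 h ratio 0.43 (-0.11 to 0.98) and 1.36 (0.26 to 2.54). The activin and TGF-β type I receptors Acvr1b and Tgfbr1 and the type II receptor Acvr2a were short of 1.5-fold at 30 h, at -0.56, -0.50 and -0.54. The BMP targets did not share a direction at 30 h: Tmem100 was at 0.46, Id1 at 0.08, Id3 at -0.28, Smad6 at -0.36 and Id2 at -1.025. Smad1 was past 1.5-fold lower at 30 h in all 4 blood vessel classes, with ratios between -0.70 and -0.66, and short of it in LEC-like cells, where it was highest (504 and 366 CPM).

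**Figure D5:**
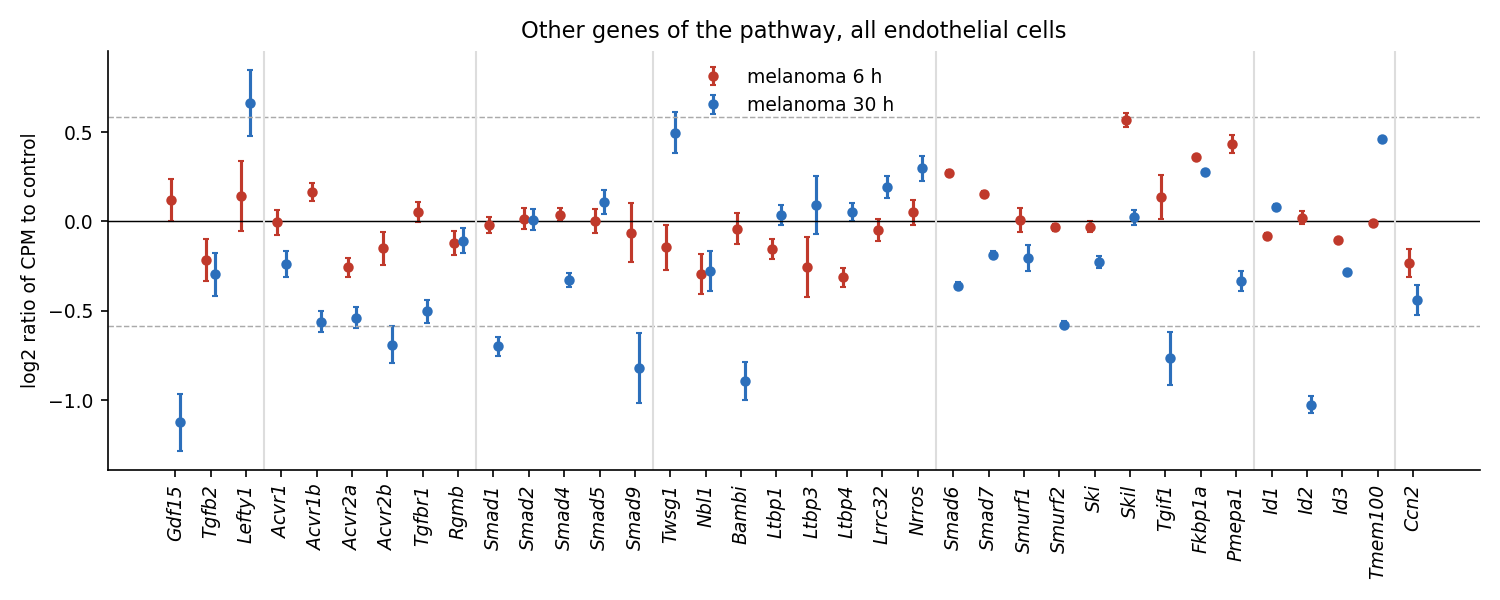
Log2 ratio of CPM to control, with exact 95% intervals, of other pathway genes that passed 5 CPM, in all endothelial cells; grey verticals part the lists in the order ligands, receptors, SMADs, antagonists and latency proteins, intracellular inhibitors, BMP targets and TGF-β and activin targets, and dashed lines mark 1.5-fold. Genes shared between lists are drawn once, in the first of them, so the later lists are not drawn in full. At 30 h 7 genes were below the lower line.

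The genes most like the members were sought over 12 levels, those of the 4 blood vessel classes in the 3 libraries, among 10234 genes. The points share libraries and depth, and the Pearson r of log2(CPM + 1) is a description only. Nearest to Bmp4 was Lyve1 (r = 0.99), nearest to Bmpr2 the endothelial transcription factor gene Erg (0.98), and nearest to Tgfbr2 Cygb (0.96). For Inhbb the nearest were Hnrnpa2b1 (0.92), Gm26672 and Adam17 (both 0.90). Nearest to Acvrl1 was Coa4 (0.96), to Eng Hnrnph1 (0.91), to Tgfb1 Fam210b (0.97) and to Tgfbr3 Rab5if (0.91).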

How the data were processed

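The deposited matrices hold raw counts of UMIs per gene and barcode, unfiltered, which the authors made with Cell Ranger 7.2.0 against mm10 per the labels. A different Cell Ranger release is named in the paper's methods. Of the gene IDs 99.6% were found in GENCODE M21. The members and lists were chosen with earlier results of these data known. UMIs were summed over ECs (Python 3.11.15, scipy 1.17.1) and scaled to CPM, with exact Poisson intervals for levels, exact conditional binomial intervals for ratios and Clopper-Pearson intervals for shares. A library at 0 was set to 3 counts for calls over all genes. All 10 members are named, with the other pathway genes of at least 5 CPM past 1.5-fold at 6 h or 30 h and, for likeness, the genes of highest r; the target genes compared by Inhbb detection and other values named beside them were chosen after their values were seen. Doublets were left in and removed as an alternative, by Scrublet score (scanpy 1.11.5). The ratio and thinning steps were tested on simulated data. A few results on genes outside the 10 members are not reported here.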

Additional observations from a re-analysis of the deposited data

Results flagged for a closer look

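Bmp4, Bmp6, Eng and Tgfb1 are listed because their log2 ratios to control had opposite signs at 6 h and 30 h. The 6 h and 30 h values were 0.10 and -1.26 for Bmp4, 0.046 and -0.63 for Bmp6, 0.29 and -0.25 for Eng, and 0.23 and -0.065 for Tgfb1. Bmp6 is also listed because classes moved in opposite directions at 6 h, with 0.13 in artery-like and 0.22 in vein-like cells against -0.066 in aCap-like cells. With 1 library per group, the difference was not tested in any of these. Inhbb was further listed for its signal in droplets of at most 100 UMIs, which no comparison used: its log2 ratio to control there was 2.685 (1.74 to 3.76) at 6 h and 1.10 (0.10 to 2.23) at 30 h, from 11, 59 and 36 UMIs in the 3 libraries.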

How the results depend on the processing

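No paired analysis was possible because each group has 1 library, and for the same reason no library could be left out. Of 108 recomputed counts of genes past 1.5-fold 101 stayed within 1.5 times the reported count. Members lower at 30 h than in the control numbered 1 instead of 2 when scaling left out mitochondrial, ribosomal and rRNA-like genes (3.99% of all genes lower). The number was also 1 with median-of-ratios size factors (3.59%) and at a 2-fold limit (1.06%). Members higher at 30 h numbered 0 instead of 1 with each cell thinned to 2000 UMIs (5.19% of all genes higher) and at a 2-fold limit (0.983%). With no minimum CPM, members higher numbered 2 instead of 1 at 6 h and 2 instead of 1 at 30 h, since Inhba then entered. Of the 24942 genes then compared, 14.6% were higher at 6 h and 18.0% at 30 h. Of 480 member ratios 99 moved and 12 changed sign, none of them a called one, and that of Tgfbr3 at 6 h ran from -0.43 to -0.12. Of 185 class ratios 13 moved and 10 changed sign, and 44 of 150 class levels moved. Shares of cells depend on depth: 59 of 60 moved with other thinning. The log2 ratio of Inhbb ran from 2.14 to 2.82 at 6 h and from 0.48 to 1.01 at 30 h, that of Bmp4 at 30 h from -1.34 to -1.16 and that of Bmp6 at 30 h from -0.71 to -0.56. The 6 h ratio of Bmp6 ran from -0.03 to 0.08 and the 30 h ratio of Tgfb1 from -0.12 to 0.13, so neither has a direction. Scrublet's own threshold marked at most 0.957% of barcodes, so the highest scores were removed by rank instead. LEC-like cells numbered 72 or fewer per library, so their intervals are wide.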
